A study of Mus musculus with 64 samples.

Results

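Transcripts of 9 genes of glycogen metabolism were followed in 4 tissues of mice: Ugp2, Gys1, Gbe1, Ppp1r3b, Ppp1r3c, Phkg1, Phkg2, Pygb and Pygm, out of 17199 genes in the tables of the series. They were taken by symbol. The set was chosen on the measured levels in prefrontal cortex, where Ppp1r3b and Phkg1 were lower in stressed animals without passing adjustment, so the prefrontal cortex values below are a description of that choice and no test is read from them. The tables of prefrontal cortex, hippocampus and hypothalamus held all 9 genes, and the blood table held 5, lacking Ppp1r3c, Phkg1, Pygm and Gys1.

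The animals were male BALB/c mice, 28 weeks old. The stressed group was kept for 9 weeks under Unpredictable Chronic Mild Stress (UCMS), a rodent model of depression in which mild stressors change in kind and time, and the control group was left unstressed. The labels name no transgene or drug for any group. Prefrontal cortex, hippocampus and hypothalamus came from 8 control and 8 UCMS mice each, and whole blood from 7 control and 9 UCMS mice. The 64 libraries came from 17 animals, 1 library per animal and tissue, so the tissues share animals and are not independent of each other. RNA was collected 14 to 16 hours after the last stressor, between ZT12.5 and ZT14.5 (hours after lights on), from whole dissected tissue that mixes cell types. In such bulk samples, fewer cells of a type and less RNA per cell cannot be told apart.

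Glycogen is the branched glucose store of animal cells, and in the brain it is held mainly by astrocytes, which can break it down when neurons are active. UDP-glucose made by Ugp2 is the substrate of glycogen synthase (Gys1 in brain and muscle), and the branching enzyme Gbe1 adds the branch points. Breakdown is carried out by glycogen phosphorylase (brain form Pygb, muscle form Pygm), which phosphorylase kinase switches on through its catalytic gamma subunit (Phkg1, Phkg2), while protein phosphatase 1, brought to glycogen by targeting subunits such as Ppp1r3b and Ppp1r3c, removes phosphate from these enzymes and so favours storage.

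The promoters of 8 of the 9 genes matched an entry in RefSeq (GRCm38.p6, from 250 bases before to 50 after the gene start); Ppp1r3b had no entry. Shown are Phkg1, a gene of the choice in prefrontal cortex, Pygb, the member with the smallest p in blood, and Ppp1r3c, the other phosphatase targeting subunit. Capitals mark matches, on either strand, to CACGTG (E-box), CCAAT (the box of that name), GGGCGG (GC box), AGAACA (core of a glucocorticoid response element) and TGACG (core of a cyclic AMP response element). No 2 of these motifs overlapped in the sequences shown.
Phkg1, chr5:129879039-129879338, minus strand: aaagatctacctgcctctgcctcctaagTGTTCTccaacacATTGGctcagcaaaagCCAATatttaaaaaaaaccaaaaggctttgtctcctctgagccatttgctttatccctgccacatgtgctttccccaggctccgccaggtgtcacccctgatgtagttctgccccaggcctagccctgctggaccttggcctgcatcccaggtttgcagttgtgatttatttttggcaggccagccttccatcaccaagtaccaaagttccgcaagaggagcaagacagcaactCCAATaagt
Ppp1r3c, chr19:36736555-36736854, minus strand: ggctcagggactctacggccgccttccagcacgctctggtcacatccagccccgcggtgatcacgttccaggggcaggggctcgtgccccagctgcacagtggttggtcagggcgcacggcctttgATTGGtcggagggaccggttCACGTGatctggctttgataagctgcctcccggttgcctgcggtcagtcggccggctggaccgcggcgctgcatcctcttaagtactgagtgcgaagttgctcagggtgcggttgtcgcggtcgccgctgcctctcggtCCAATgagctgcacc
Pygb, chr2:150786546-150786845, plus strand: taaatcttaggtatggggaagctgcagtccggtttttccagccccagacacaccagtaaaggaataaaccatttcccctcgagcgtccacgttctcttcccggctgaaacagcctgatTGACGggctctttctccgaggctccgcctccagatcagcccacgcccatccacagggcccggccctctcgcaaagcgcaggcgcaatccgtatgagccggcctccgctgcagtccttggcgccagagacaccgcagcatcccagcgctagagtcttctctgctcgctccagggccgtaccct
Positions count from the RefSeq gene start, which for these genes is not that of the GENCODE M21 intervals given with the values: the Phkg1 window lies well inside its GENCODE interval, which reaches 129898549, and so is not the window at the start of that interval. The Phkg1 window held 3 CCAAT boxes and 1 AGAACA match, read on the opposite strand, at position -222. The Ppp1r3c window held an E-box at position -104 and 2 CCAAT boxes. The Pygb window held 1 TGACG match. Of 32851 promoter windows of this length, 7.15% held CACGTG, 37.4% CCAAT, 35.7% GGGCGG, 19.0% AGAACA and 20.8% TGACG, and a match is a description of letters only.

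Values are normalized log2 levels that were equalized between the libraries of a table, so a difference of 1 is a doubling, sequencing depth is unknown and no counting interval can be given. Each table was normalized separately, so levels in different tissues are set side by side without a test. Genes in the lowest 10% by mean level were left out of the tests, which removed Gbe1 in prefrontal cortex, hippocampus and blood. Tissue labels were set beside marker genes. Of 5 hypothalamic peptide genes 5 were in the hypothalamus table, 0 in prefrontal cortex and 1 in hippocampus. Of 6 red cell precursor markers 5 were in the blood table, where Ahsp was missing. The hypothalamus table also held 5 and lacked Ahsp, so their presence does not check the blood label. Their summed level in controls had a median of 15.5 in blood and 6.02 in hypothalamus, where the highest control reached 14.3. The cortex markers were in all 3 brain tables (5 of 5 each) and the hippocampus markers in all 3 (5 of 5 in hippocampus, 4 of 5 in the others), so their presence does not check those labels. In all, 2 libraries stood apart, UCMS replicate 5 of prefrontal cortex and UCMS replicate 3 of hippocampus, with a median absolute deviation from the gene medians of 0.320 and 0.307 against 0.064 to 0.189 in the other brain libraries. High hemoglobin RNA (Hbb-bs over 12 on the log2 scale) marked 9 of the 48 brain libraries.

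Across the 3 tissues that the choice did not use, none of the tested members passed limma's test at a Benjamini-Hochberg adjusted p of 0.05. The counts were 0 of 8 in hippocampus, 0 of 9 in hypothalamus and 0 of 4 in blood, and over all genes the share called at that threshold was 0% in each tissue. At an unadjusted p under 0.05 the counts were 0 of 8 in hippocampus, where 2.95% of all genes were called (1.28% lower), 0 of 9 in hypothalamus (2.12%, 1.17% lower) and 1 of 4 in blood (10.8%, 4.33% lower), the last being Pygb, which was lower. With the exact permutation test per gene the counts were also 0, 0 and 1. In prefrontal cortex 2 of 8 members, Ppp1r3b and Phkg1, had an unadjusted p under 0.05, both lower, where 2.18% of all genes had one in either direction and 1.20% were lower; this is the pattern the set was chosen for. The members' median difference (UCMS minus control) in prefrontal cortex was -0.083 beside 0.0056 over all genes tested. It was -0.019 beside 0.00037 in hippocampus, -0.011 beside 0.00075 in hypothalamus and -0.29 beside -0.010 in blood. In blood 3 of 4 tested members were lower in UCMS, beside 51.5% of all genes.

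**Figure D1:**
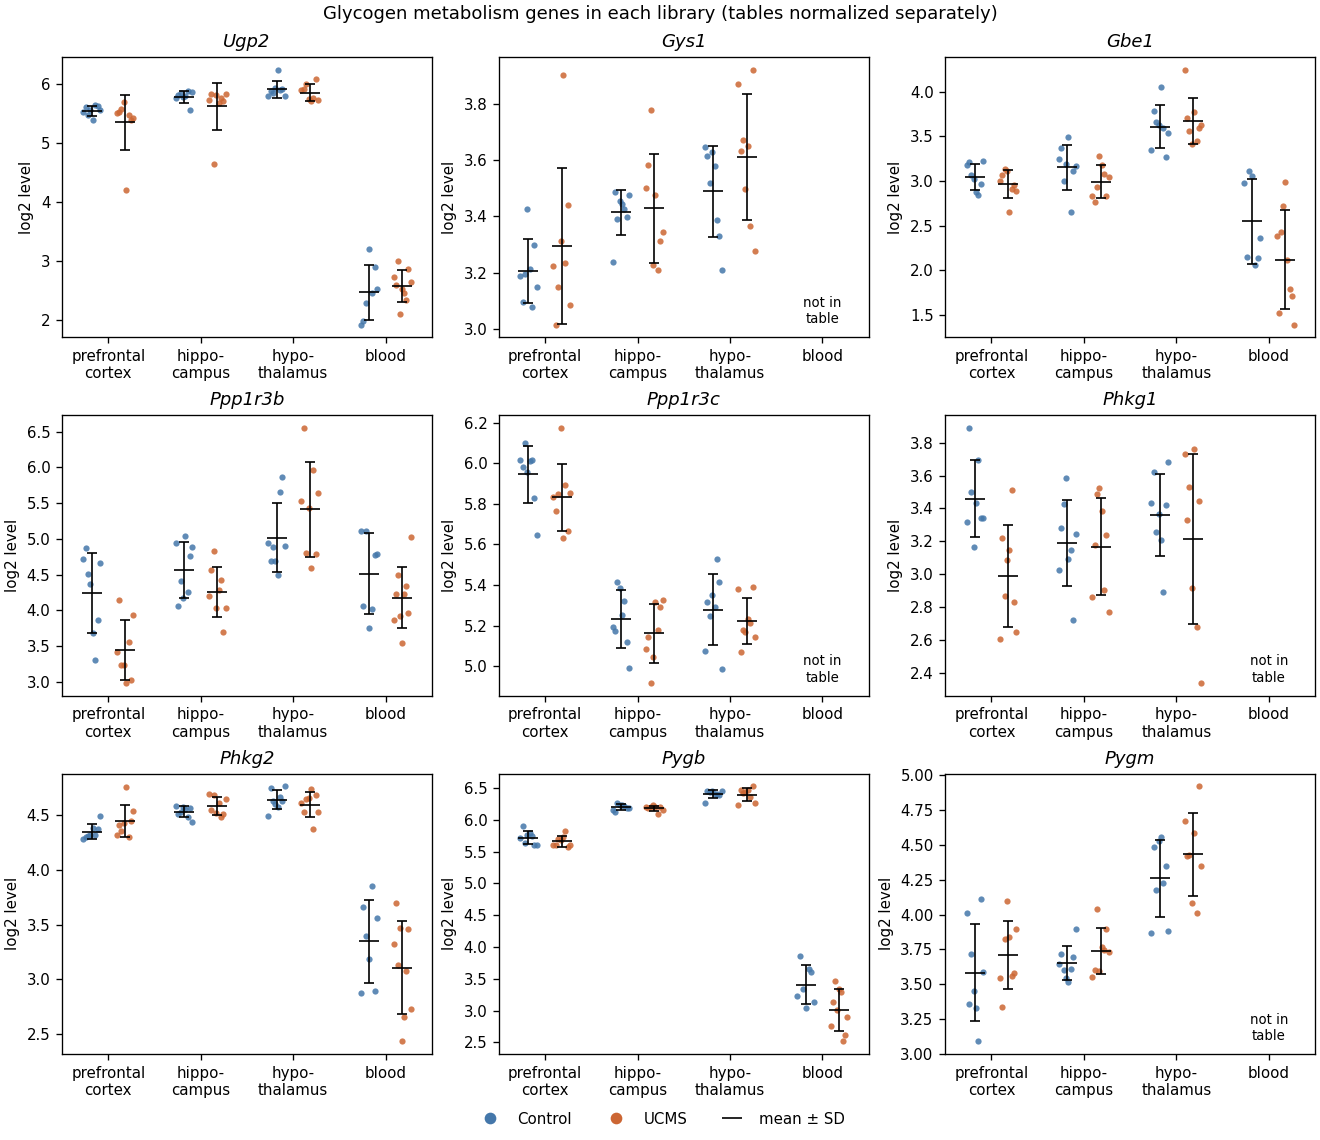
Log2 level of each gene in every library (points; y axis, normalized log2 level, scaled per gene) by tissue and group, with mean and SD as black bars; blue is control and orange UCMS. The prefrontal cortex points of Ppp1r3b and Phkg1 sit lower in UCMS, the hypothalamus points of Ppp1r3b spread widest, and 1 low UCMS point of Ugp2 stands alone in prefrontal cortex and in hippocampus.

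Ppp1r3b (GRCm38 chromosome 8, 35375739 to 35388139, plus strand) encodes the targeting subunit best known from liver. In prefrontal cortex its log2 level ran from 3.31 to 4.87 with a median of 4.44 in controls, and from 2.99 to 4.15 with a median of 3.33 in UCMS. The groups overlapped, but 8 of 8 UCMS libraries were under the control median and 4 were under the lowest control. The difference was -0.81 (SE 0.23, 95% confidence interval -1.29 to -0.32), a change of -42.8% on the linear scale, as a description. Without the library that stood apart it was -0.74.

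In hippocampus Ppp1r3b ran from 4.06 to 5.03 (median 4.59) in controls and from 3.70 to 4.82 (median 4.25) in UCMS. Of the UCMS libraries 7 of 8 lay under the control median and 3 under the lowest control. The difference was -0.30 (SE 0.17, interval -0.66 to 0.053), with an exact permutation p of 0.119, limma p = 0.090 and adjusted p = 0.990. Leaving out UCMS replicate 3, the library that stood apart, moved it to -0.39, and leaving out control replicate 2 moved it to -0.38, each with an unadjusted limma p under 0.05. Leaving out UCMS replicate 7, the lowest library, moved it the other way, to -0.22.

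In hypothalamus the difference had the other sign. Controls ran from 4.49 to 5.86 with a median of 4.89, and UCMS libraries from 4.60 to 6.55 with a median of 5.49. Of the UCMS libraries 5 of 8 were above the control median, and the groups overlapped over most of their range. The difference was 0.40 (SE 0.27, interval -0.17 to 0.96), with an exact permutation p of 0.200, limma p = 0.155 and adjusted p = 1. Without UCMS replicate 2, the highest library, it was 0.24.

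The opposite signs in hippocampus and hypothalamus were compared within animals, a comparison added after the values were seen. The excess of hypothalamus over hippocampus for Ppp1r3b was 0.45 in controls and 1.15 in UCMS, and was above the control median in 6 of 8 UCMS animals. The difference of 0.70 (SE 0.30, interval 0.075 to 1.33) had an unadjusted limma p of 0.030, an exact permutation p of 0.0533 and an adjusted p of 1 over 13694 genes, of which 2.26% were under 0.05 unadjusted. The other 7 members tested in both regions had differences between -0.12 and 0.11, all with intervals that held 0.

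In blood Ppp1r3b ran from 3.76 to 5.11 (median 4.78) in 7 controls and from 3.55 to 5.02 (median 4.23) in 9 UCMS mice. Of the UCMS libraries 8 of 9 lay under the control median. The difference was -0.34 (SE 0.23, interval -0.81 to 0.13), with an exact permutation p of 0.191, limma p = 0.153 and adjusted p = 0.565.

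Ppp1r3c (chromosome 19, 36731731 to 36736653, minus strand) encodes protein targeting to glycogen, the other subunit of this kind in the set. Its level in prefrontal cortex ran from 5.65 to 6.10 (median 5.996) in controls and from 5.63 to 6.17 (median 5.84) in UCMS, with 7 of 8 UCMS libraries under the control median. The difference there was -0.11 (SE 0.078), as a description. Without control replicate 8 it was -0.15 and without UCMS replicate 4 it was -0.16, each with an unadjusted limma p under 0.05. Without UCMS replicate 5, the library that stood apart, it was -0.084, the smallest of these fits. Groups overlapped almost fully in hippocampus (difference -0.068, interval -0.22 to 0.082, or -0.033 without the library that stood apart) and in hypothalamus (-0.055, interval -0.21 to 0.098). Its control mean was 5.95 in prefrontal cortex beside 5.23 in hippocampus and 5.28 in hypothalamus. The prefrontal cortex control libraries lay at 5.65 or more and those of the other regions at 5.53 or less, while hippocampus and hypothalamus overlapped. The tables were normalized separately, and the share of all genes with such a gap was not computed. No regional difference is read from these levels.

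Phkg1 (chromosome 5, 129863421 to 129898549, minus strand) encodes the muscle-type catalytic subunit of phosphorylase kinase. In prefrontal cortex it ran from 3.16 to 3.89 (median 3.39) in controls and from 2.60 to 3.51 (median 2.98) in UCMS. Of the UCMS libraries 6 of 8 were under the lowest control, and 1 was above the control median. The difference was -0.47 (SE 0.14, interval -0.76 to -0.18), a change of -27.8%, as a description. Phkg1 was a low-level gene there, at percentile 12.4 of the genes by level and so near the cut of the level filter. Its UCMS mean of 2.99 lay under that cut, which was 3.11. The gene overlaps Sumf2, Gm42790, Chchd2 and Zbed5 in the annotation, and how the counting treated overlaps and strand is not given in the sources used here, so its reads may be shared.

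Phkg1 in hippocampus and hypothalamus did not pass the test, and its difference between tissues was not tested against prefrontal cortex. In hippocampus controls ran from 2.72 to 3.58 (median 3.20) and UCMS from 2.77 to 3.52 (median 3.21), with 4 of 8 UCMS libraries on each side of the control median. The difference was -0.022 (SE 0.14, interval -0.31 to 0.27). By level Phkg1 ranked at percentile 10.1 of the hippocampus genes, just above the 10% left out, and at 13.4 of the hypothalamus genes. In hypothalamus controls ran from 2.89 to 3.68 (median 3.39) and UCMS from 2.34 to 3.76 (median 3.39). The UCMS libraries there were wider on both sides, 2 above and 2 below all controls, and the difference was -0.14 (SE 0.19, interval -0.55 to 0.26), or 0.11 without the hemoglobin-rich libraries.

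Phkg2 (chromosome 7, 127573340 to 127583307, plus strand), the liver and testis type of the same subunit, was among the steadiest members in the brain. It differed by 0.097 in prefrontal cortex (SE 0.063), 0.055 in hippocampus (interval -0.035 to 0.15) and -0.044 in hypothalamus (interval -0.16 to 0.070). In prefrontal cortex 6 of 8 UCMS libraries were above the control median, and the difference was 0.052 without the library that stood apart. In blood it ran from 2.88 to 3.86 (median 3.39) in controls and from 2.43 to 3.69 (median 3.13) in UCMS, a difference of -0.24 (interval -0.65 to 0.18). Phkg2 overlaps Ccdc189 on the opposite strand.

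Pygb (chromosome 2, 150786735 to 150831758, plus strand), the brain form of phosphorylase, had small differences in the brain. Its differences were -0.054 in prefrontal cortex, -0.016 in hippocampus (interval -0.087 to 0.054) and -0.011 in hypothalamus (interval -0.11 to 0.088). All 16 hippocampus libraries lay between 6.09 and 6.26. In blood its control values ran from 3.03 to 3.86 (median 3.34) and its UCMS values from 2.52 to 3.47 (median 3.01). Of the UCMS libraries 8 of 9 were under the control median and 5 under the lowest control.

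The blood difference of Pygb was -0.40 (SE 0.17, interval -0.76 to -0.047), a change of -24.4%, with limma p = 0.028, adjusted p = 0.458 and an exact permutation p of 0.027, both tests two-sided. It did not pass adjustment. Platelet markers (Pf4, Ppbp, Itga2b, Gp9, Tubb1) were lower in UCMS blood in 5 of 5, 4 of them at an unadjusted p under 0.05, with a median difference of -0.43; their summed level ran from 10.3 to 10.9 in controls and from 9.03 to 10.7 in UCMS. Neutrophil markers were lower in 5 of 5 (median -0.15, 0 at an unadjusted p under 0.05) and red cell precursor markers higher in 5 of 5 (median 0.20, 1 at an unadjusted p under 0.05). With the platelet marker score as a covariate, chosen after the values were seen, the Pygb difference was -0.067 (SE 0.16). With the red cell precursor score as a covariate it was -0.30 (SE 0.18). Neither fit had an unadjusted p under 0.05. The platelet markers were themselves lower in UCMS, so the fit with their score also takes out part of the contrast between groups. The part of platelets in the Pygb difference was not tested.

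Pygm (chromosome 19, 6384399 to 6398459, plus strand), the muscle form, which astrocytes also make, was higher on average in UCMS in each brain region, but no interval excluded 0 and no table's groups separated. The differences were 0.13 in prefrontal cortex (SE 0.14), 0.088 in hippocampus (interval -0.073 to 0.25) and 0.17 in hypothalamus (interval -0.11 to 0.46). They were 0.056 without control replicate 6 in prefrontal cortex, 0.045 without UCMS replicate 3, the library that stood apart, in hippocampus, and 0.10 without UCMS replicate 7 in hypothalamus. The 3 regions share their animals, so these are not 3 independent observations. Its control level in hypothalamus, from 3.87 to 4.56, lay above most hippocampus controls, from 3.52 to 3.899, and prefrontal cortex controls ran from 3.09 to 4.11.

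Ugp2 (chromosome 11, 21321138 to 21371201, minus strand), which makes UDP-glucose, had a difference that rested on 1 library in prefrontal cortex and 1 in hippocampus. In prefrontal cortex UCMS replicate 5 was at 4.21 while the other UCMS libraries were at 5.40 or more and the controls ran from 5.39 to 5.66. In hippocampus UCMS replicate 3 was at 4.64, the next UCMS library at 5.69, and the controls ran from 5.56 to 5.88. These are the 2 libraries that stood apart over all genes. The difference of -0.20 in prefrontal cortex was -0.035 without that library, and the difference of -0.16 in hippocampus was -0.022. In hypothalamus it was -0.058 (interval -0.20 to 0.088), and in blood 0.11 (interval -0.33 to 0.55), where controls ran from 1.92 to 3.20 and UCMS from 2.09 to 3.001. Ugp2 overlaps Mir1933 and Gm12043.

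Gys1 (chromosome 7, 45434844 to 45456619, plus strand) overlaps Ruvbl2 on the opposite strand. Its differences were 0.090 in prefrontal cortex (SE 0.11), 0.015 in hippocampus (interval -0.16 to 0.19) and 0.12 in hypothalamus (interval -0.088 to 0.33). The prefrontal value rested on UCMS replicate 5, at 3.903 beside 3.44 for the next highest, and was 0.0033 without it. In hypothalamus 4 of 8 UCMS libraries were above every control, and without the hemoglobin-rich libraries the difference was 0.22 with an unadjusted limma p under 0.05.

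Gbe1 (chromosome 16, 70313949 to 70569716, plus strand) was tested in hypothalamus only, where it differed by 0.062 (interval -0.20 to 0.32). Fitted with no level filter, it differed by -0.080 in prefrontal cortex, -0.16 in hippocampus and -0.43 in blood (interval -1.01 to 0.14). In blood it ran from 2.06 to 3.11 (median 2.36) in controls and from 1.39 to 2.99 (median 2.11) in UCMS, with 4 of 9 UCMS libraries under the lowest control.

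**Figure D2:**
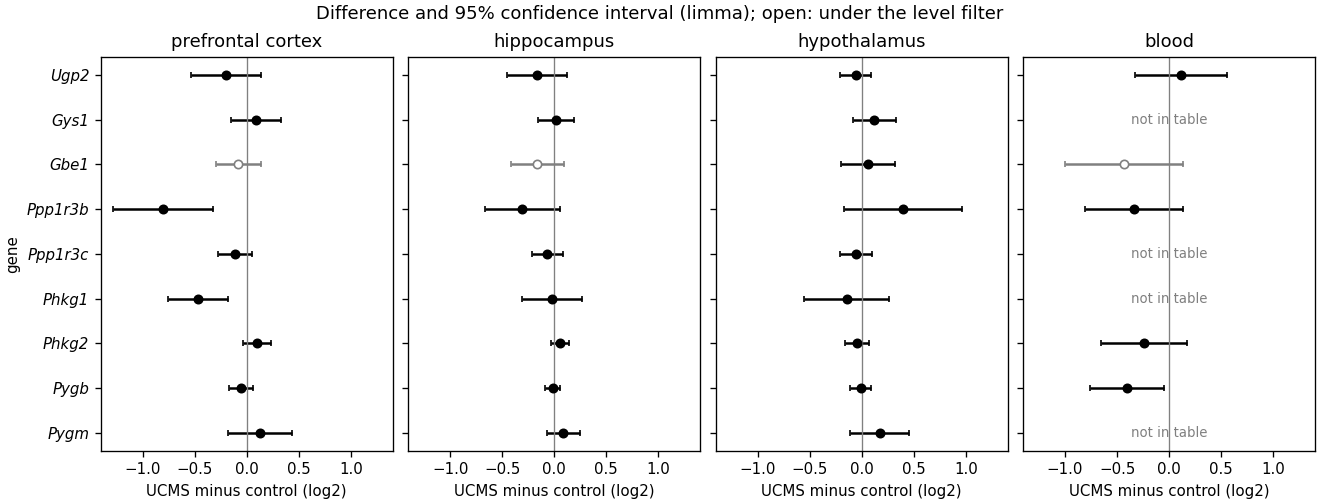
Difference UCMS minus control (x axis, log2) of each gene in each tissue with its 95% confidence interval from limma; open grey points are genes under the level filter, fitted without it. Outside prefrontal cortex, the interval of Pygb in blood, from -0.76 to -0.047, is the only one that leaves out 0; Ppp1r3b lies left of 0 in prefrontal cortex, hippocampus and blood and right of 0 in hypothalamus.

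Other genes of the pathway were taken from a list of 27 symbols, of which Gyg and Gyg1 name 1 gene: 21 were tested in prefrontal cortex, 22 in each of the other brain regions and 11 in blood. None passed adjustment. At an unadjusted p under 0.05, 1 of 21 was called in prefrontal cortex, 0 of 22 in hippocampus, 1 of 22 in hypothalamus and 2 of 11 in blood, all of them lower and beside the shares of all genes given above. In prefrontal cortex this was Phkb, the regulatory beta subunit of phosphorylase kinase, at -0.17 (SE 0.078), with 7 of 8 UCMS libraries under the control median. In hypothalamus it was Ppp1r3d, another phosphatase targeting subunit, which ran from 6.20 to 6.54 in controls and from 5.98 to 6.34 in UCMS, a difference of -0.14 (exact permutation p = 0.044, limma p = 0.039, adjusted p = 1).

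In blood the 2 were Pygl, the liver form of phosphorylase, and Ppp1ca, a catalytic subunit of protein phosphatase 1. Pygl ran from 2.72 to 3.34 in controls and from 2.03 to 3.12 in UCMS, with 8 of 9 UCMS libraries under the control median and a difference of -0.43 (SE 0.17, exact permutation p = 0.0080, limma p = 0.021, adjusted p = 0.457). Ppp1ca differed by -0.30 (SE 0.13, exact permutation p = 0.0076, limma p = 0.039, adjusted p = 0.458). The list's median difference in blood was -0.14 beside -0.010 over all genes. In hippocampus the 3 genes of the list with the smallest p were Gyg (glycogenin, the primer of glycogen) at -0.099, Ppp1r3e (a targeting subunit) at 0.15 and Ppp1r2 (an inhibitor of the phosphatase) at -0.049, with limma p from 0.079 to 0.228.

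The members differed in how widely animals of a group varied. The within-group SD of Ppp1r3b was larger than that of 95.7% of tested genes in hypothalamus, 92.7% in prefrontal cortex, 91.3% in hippocampus and 72.7% in blood. From the lowest to the highest library its level spanned 4.16-fold, 3.69-fold, 2.52-fold and 2.96-fold in those tissues. Pygb lay at the other end, at 8.76% in hypothalamus, 5.12% in prefrontal cortex, 0.128% in hippocampus and 28.7% in blood, and spanned 1.121-fold in hippocampus. Phkg2 was also steady in the brain, at 16.0%, 11.3% and 2.53% in the same order. Among tested genes the SD also depends on level, which was not taken out of these percentiles.

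**Figure D3:**
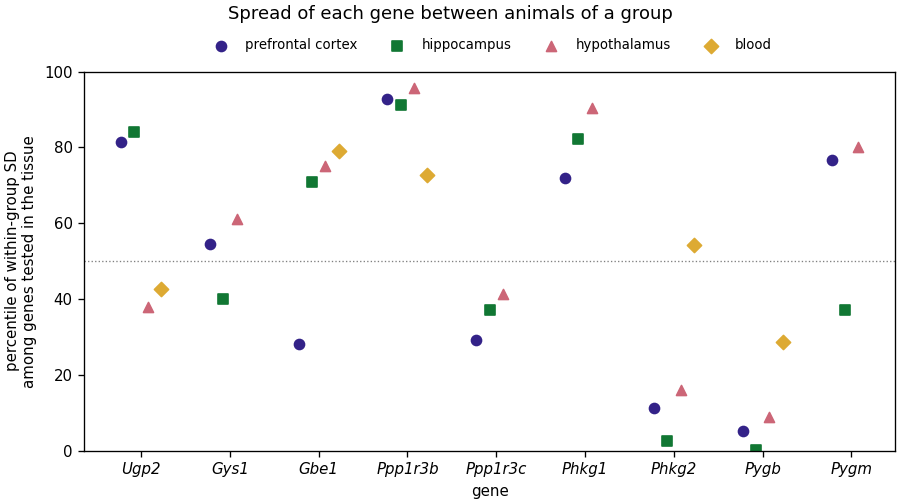
Percentile of each gene's within-group SD among all genes tested in a tissue (y axis, percent; 1 symbol per tissue, dotted line at the median gene). Ppp1r3b is above 90 in all 3 brain regions, and Pygb and Phkg2 are under 20 there.

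Levels of members were then compared with each other across animals, with the group means removed. Of 118 pairs of members within a tissue, 0 passed adjustment by Pearson's r and 0 by Spearman's rho. The smallest adjusted p was 0.236, for pairs in prefrontal cortex and hypothalamus. In hypothalamus Pygm went with Ugp2 (r = 0.68, rho = 0.68, permutation p = 0.0045 and 0.0066, r = 0.58 without the 2 farthest libraries) and with Gys1 (r = 0.65, rho = 0.66, permutation p = 0.0093 for each, r = 0.49). Without the hemoglobin-rich libraries, which left 12, the Pygm and Gys1 pair had r = 0.93 and an adjusted p of 0.012 in a permutation test. Over all 16 libraries the adjusted p of this pair was 0.236 in that test, so the relation depends on the setting. In prefrontal cortex Phkg2 and Ugp2 had r = -0.78 (rho = -0.45, permutation p = 0.036 and 0.065), and r = -0.16 without the library that stood apart. Ppp1r3b and Phkg1, the pair of the choice, had r = 0.017 in prefrontal cortex over animals with the group means removed. In hippocampus that r was -0.19 and in hypothalamus -0.42, none past adjustment.

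No member of an animal tracked between tissues beyond adjustment. Of 42 relations between the same gene in 2 tissues, 0 passed by either measure. For Ppp1r3b, r between prefrontal cortex and hippocampus was 0.044, between prefrontal cortex and hypothalamus 0.18 and between hippocampus and hypothalamus 0.11, over 16 animals each (permutation p from 0.490 to 0.874). The highest was with blood, r = 0.49 between prefrontal cortex and blood (15 animals, rho = 0.49, permutation p = 0.086 and 0.091, adjusted p = 0.60 and 0.92).

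Members were also set beside marker scores of cell types in the brain regions (the mean z-score of a marker list in a library), a comparison chosen after the values were seen. Of 162 relations, 4 passed adjustment by Pearson's r and 1 by Spearman's rho. In hypothalamus Ppp1r3b went with choroid plexus markers (r = 0.76, rho = 0.83, permutation p = 0.00037 and 3e-05, adjusted p = 0.030 and 0.0049, r = 0.73 without the 2 farthest libraries). Pygm in hypothalamus went with astrocyte markers (r = 0.76, rho = 0.74, permutation p = 0.00098 and 0.0016, adjusted p = 0.045 and 0.068, r = 0.57 without the 2 farthest). In prefrontal cortex Pygb went with choroid plexus markers (r = 0.75, rho = 0.66, permutation p = 0.00028 and 0.00505, adjusted p = 0.030 and 0.117, r = 0.64) and Phkg1 with neuron markers in the negative direction (r = -0.72, rho = -0.55, permutation p = 0.0011 and 0.029, adjusted p = 0.045 and 0.214, r = -0.49). Neuron markers differed between groups by a median of 0.10 in prefrontal cortex, higher in 8 of 10, with 0 at an unadjusted p under 0.05. With markers of astrocytes, the main holders of glycogen in brain, Ppp1r3b had r = -0.43 in hypothalamus, 0.21 in prefrontal cortex and 0.14 in hippocampus, none past adjustment (smallest permutation p 0.115).

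The genes whose level was most like that of Ppp1r3b across the 16 libraries of a region were read next. In hypothalamus they were Bmp4 (r = 0.96), Serping1 (0.96), Cyp1b1 (0.96), Notch2 (0.95) and Pcolce (0.94). Bmp4 is a secreted growth factor, Serping1 encodes an inhibitor of complement C1 and Pcolce a helper of collagen processing. In hippocampus they were Aqp1 (0.87), a water channel of choroid plexus, Il6st (0.82), Slc16a12 (0.82), Limd1 (0.81) and Ehd4 (0.80). In prefrontal cortex they were Phb (0.85), Vcam1 (0.82), Tlr4 (0.79), Cyp1b1 (0.77) and Ube2q1 (0.77), so that Cyp1b1 was named in 2 regions.

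For Ppp1r3c the 5 most like genes were Ndufb9, Akap7, Zswim7, Snora70 and Rnu12 in prefrontal cortex (r from 0.77 to 0.81), Nab1, Cd72, Ttf1, Dgki and Gm1976 in hippocampus (0.77 to 0.84) and Dtx2, Vps36, Stard13, Etohi1 and Gm3417 in hypothalamus (0.77 to 0.80). For Phkg1 they were Rps26-ps1, 2410006H16Rik, Dbi, Vangl1 and Gstm7 in prefrontal cortex (0.80 to 0.86), Pus7, Brf1, Cyb5r1, Mblac1 and Gtf2f1 in hippocampus (0.79 to 0.84) and D330041H03Rik, Actr1a, Tuba1a, Zfpl1 and Gsk3a in hypothalamus (0.78 to 0.84). None of these genes was shared between regions. Gsk3a, a kinase that phosphorylates glycogen synthase, belongs to the pathway list. Each name is the top of correlations with all other tested genes over 16 libraries, so such lists are descriptions.

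Markers of meningeal fibroblasts, the collagen-making cells of the brain's coverings, were added after these names were seen and are given with no test (Dcn, Lum, Col1a1, Col1a2, Col3a1, Mgp, Igf2, Slc6a13, Aldh1a2, Slc22a6). In hypothalamus 10 of 10 were in the table and 5 passed the level filter, all 5 higher in UCMS, with a median difference of 0.38. Their summed level ran from 6.31 to 8.11 (median 6.76) in controls and from 6.19 to 8.98 (median 7.62) in UCMS. In prefrontal cortex 3 of 3 tested were lower (median -0.17), and in hippocampus 4 of 4 were lower (median -0.25). Since the list was picked for genes that went with Ppp1r3b in hypothalamus, no support is drawn from these signs. None was in the blood table.

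The hypothalamus libraries were divided at a meningeal marker score of 0, after the values were seen. The scores show no clear break there. Because the list was picked for genes that went with Ppp1r3b in these libraries, no support is drawn from the division. In the 7 libraries with a score above 0, 2 control and 5 UCMS, Ppp1r3b ran from 5.44 to 6.55. In the other 9, 6 control and 3 UCMS, it ran from 4.49 to 4.94, so the ranges did not overlap. Within the 7 the correlation of Ppp1r3b with the score was 0.90, and within the 9 it was 0.30; with choroid plexus markers these were 0.54 and 0.78. In prefrontal cortex r with the meningeal score was 0.48 over 16 libraries and 0.74 without the library that stood apart, and in hippocampus 0.47 and 0.29.

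With the meningeal score as a covariate, the Ppp1r3b difference in hypothalamus was 0.12 (SE 0.092) beside 0.40 without it. The list was picked for genes that went with Ppp1r3b in these hypothalamus libraries. A smaller difference there was thus built in, and nothing is drawn from it. With the same score the Ppp1r3b difference in hippocampus was -0.21 (SE 0.16) beside -0.30, and in prefrontal cortex -0.76 (SE 0.21) beside -0.81. With the choroid plexus score as a covariate the values were 0.28, -0.22 and -0.75, and with the astrocyte score 0.43, -0.33 and -0.78. Choroid plexus markers (Ttr, Kl, Clic6 and Kcnj13 in all 3 tables, Folr1 in hippocampus only) were lower in UCMS in 3 of 3 tested in prefrontal cortex, with a median of -0.75 and a summed level of 5.04 to 11.9 in controls and 4.74 to 7.43 in UCMS. Of these, 0 had an unadjusted limma p under 0.05. Control replicate 2 had a choroid plexus score of 3.13 there, and every other control 0.16 or less, so 1 library weighs heavily on this difference. Choroid plexus markers were lower in 3 of 3 in hippocampus (median -0.46) and higher in 3 of 4 in hypothalamus (median 0.097). Beyond these values, the part of such cells in the Ppp1r3b differences was not tested.

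**Figure D4:**
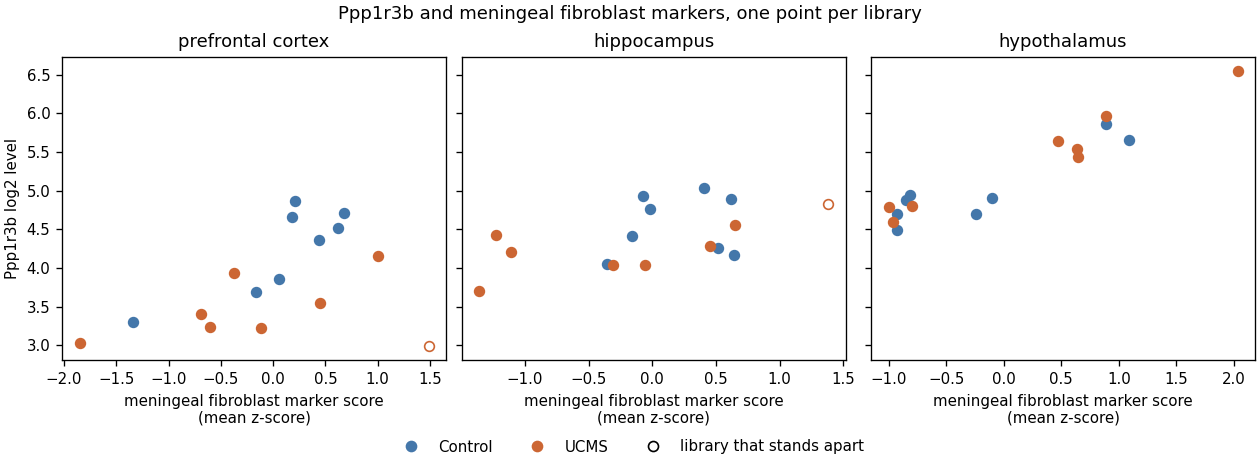
Ppp1r3b log2 level (y axis) against the meningeal fibroblast marker score (x axis, mean z-score) in each brain region, 1 point per library, control in blue and UCMS in orange, with the libraries that stand apart as open circles. In hypothalamus the 7 libraries with a score above 0 lie at 5.44 or more and the other 9 at 4.94 or less. In prefrontal cortex the open point, at 2.99, has the lowest Ppp1r3b level of the region.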

How the data were processed

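Total RNA of 3 brain regions and whole blood was depleted of ribosomal RNA and made into directional libraries from 100 ng each, per the labels' protocols. Per the submitters' processing notes, reads were placed on build GRCm38.p4; how they were aligned, counted, assigned by strand and filtered is not given in the sources used here. For each of 4 tissues the authors deposited a table of normalized values, read here as log2 levels that had been quantile normalized between libraries; this reading rests on the values alone. Depth is therefore unknown, and the spread between animals sets the precision.

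Members and lists were chosen with earlier results of these data known. Each table was fitted alone with limma 3.58.1 in R 4.3.3 (trended prior variance, two-sided, Benjamini-Hochberg over all genes tested, threshold 0.05), without the 10% of genes lowest in mean level: 14127, 14015, 14539 and 7947 genes remained. Exact permutation tests for single genes and correlations with 100000 permutations within groups used Python 3.11.15, NumPy 2.4.6 and SciPy 1.17.1. Named were all 9 members, genes of the pathway list at an unadjusted p under 0.05 (otherwise the 3 smallest), and the 5 genes most like Ppp1r3b, Ppp1r3c and Phkg1. Coordinates of genes come from GENCODE M21 on GRCm38. Alternatives were no filter, a 25% filter, no trend, a robust prior, a block by replicate number, leaving out each library, the animals numbered BS or the hemoglobin-rich libraries, and marker scores as covariates; those with meningeal, choroid plexus and platelet scores were chosen after seeing the data.

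On simulated data with the spreads of each table, the test found 63.9% of genes with a log2 change of 0.5 and 85.9% of genes with a log2 change of 1 in prefrontal cortex (14127 genes), 73.7% and 95.7% in hippocampus (14015), 78.8% and 93.3% in hypothalamus (14539), and 15.8% and 80.5% in blood (7947). Values were drawn independently for each gene, with 82 to 99 genes changed at each size. Correlated genes and libraries that stand apart were not modelled. The shares are averages over the changed genes and need not hold for a gene with a wide spread, such as Ppp1r3b.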

Additional observations from a re-analysis of the deposited data

Results flagged for a closer look

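In 8 of the 64 groups of libraries formed by a member, a tissue and a treatment, the lowest or highest library lay farther from its neighbour than Dixon's 95% limit for that group size; chance flags about 1 in 20 groups. Ugp2 accounted for 4 of them: UCMS replicate 5 of prefrontal cortex at a log2 level of 4.209, UCMS replicate 3 of hippocampus at 4.638, control replicate 7 of hippocampus at 5.558 and control replicate 5 of hypothalamus at 6.249. The 2 UCMS libraries are those that stood apart over all genes. The other 4 were Phkg2 in control replicate 8 of prefrontal cortex, the highest at 4.493, Gys1 in control replicate 1 of hippocampus, the lowest at 3.237, Pygb in control replicate 1 of hypothalamus, the lowest at 6.264, and Gbe1 in UCMS replicate 1 of hypothalamus, the highest at 4.248. Control replicate 1 of hippocampus and of hypothalamus were hemoglobin-rich, and so was control replicate 7 of hippocampus.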

How the results depend on the processing

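Depth is unknown, the tables were normalized separately, and in blood the test recovered few genes given a change of 0.5 in simulation. The 29 member differences gave 301 estimates over all other settings and 458 over the fits without a library. Of these estimates, 744 kept their direction and their side of the adjusted threshold and 15 changed sign. A change of level filter, trend or prior leaves the difference itself as it was, so those settings could not change a sign. The same holds for the replicate block in the brain regions, where both groups hold the same numbers. The 744 therefore include estimates whose direction was fixed. The sign changes were Phkg1 in hippocampus, at 0.035 without the BS animals, 0.037 with the meningeal score and 0.00037 with the choroid plexus score as a covariate; Gys1 in hippocampus, at -0.048 with the astrocyte score; Pygb in hypothalamus, at 0.0082 without the BS animals; and Phkg1 in hypothalamus, at 0.113 without the hemoglobin-rich libraries. Without 1 library, the range held 0 for Phkg1 in hippocampus (-0.089 to 0.035), Gys1 in hippocampus (-0.035 to 0.046), Pygb in hypothalamus (-0.031 to 0.013) and Gbe1 in hypothalamus (-0.021 to 0.126). The cause was not tested.

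The count of members at an adjusted p under 0.05 was 0 in every setting run. At an unadjusted p under 0.05 the count was 1 in prefrontal cortex with the 25% filter, which left Phkg1 untested, 1 in hypothalamus without the hemoglobin-rich libraries (Gys1), and 0 in blood without the BS animals, with the red cell score or with the platelet score. Without 1 library it was 2 to 3 in prefrontal cortex (3, with Ppp1r3c, without control replicate 8 or UCMS replicate 4), 0 to 1 in hippocampus (1, Ppp1r3b, without control replicate 2 or UCMS replicate 3) and 0 to 1 in blood (0 without control replicate 2, 5 or 6 or UCMS replicate 7 or 8). Pairs of members at an adjusted p under 0.05 in hypothalamus came to 1 without the hemoglobin-rich libraries.

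Replicate numbers name different animals in the groups. Same-numbered libraries correlated at -0.13 to 0.55 in prefrontal cortex, -0.37 to 0.51 in hippocampus, -0.45 to 0.30 in hypothalamus and -0.26 to 0.25 in blood. In prefrontal cortex 6 of 8 such pairs were above 0.1, with a median of 0.17, and 2 of 8 controls went best with their own number. The main fits did not pair libraries by number, and a link by number in prefrontal cortex was not tested further. With the replicate block, 0 members passed adjustment in any tissue, and 2, 0, 0 and 1 had an unadjusted limma p under 0.05. The 1 in blood was Ppp1r3b at -0.43 in place of Pygb. That fit kept only the 7 numbers held by both groups in blood, and so left out UCMS replicates 8 and 9, the animals BS1 and BS2. The value of -0.43 is thus over fewer libraries than the main fit, and no effect of the block is read from it.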
